A study of Oryza sativa Indica Group with 27 samples.

Results

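The jasmonate synthesis enzymes and the TIFY/JAZ repressors of rice are described here in seedlings put under salt. Members were taken from a fixed list of symbols, each matched to a gene by symbol or synonym without the Os prefix and represented by its brightest probe set. The rule rests on names, and measured values enter it only through the brightness that picks the probe set. The list itself was chosen with earlier results of these data known, so member shares set beside all genes are descriptive. This gave 35 genes, of 17905 genes with a probe set of their own on the array. The 17 TIFY genes were JAZ1 to JAZ13, TIFY1A, TIFY2A, TIFY2B and TIFY8. The 18 synthesis genes were 6 lipoxygenases, 4 genes of the allene oxide synthase family, 1 allene oxide cyclase and 7 reductases of the OPR family. Transcript levels were measured on 27 Affymetrix arrays, in 9 groups of 3 arrays that the labels call biological replicates. The salt groups are Nonabokra, Pokkali and IR29 seedlings after 3 h and after 6 h in 200 mM NaCl, and the control groups are seedlings of the same 3 cultivars kept for 6 h in growth medium, so salt at 3 h is set against a control taken at 6 h. All were whole seedlings 7 days old. These are indica rices, of which Nonabokra and Pokkali tolerate salt and IR29 is susceptible. The free-text description of the 3 h samples mentions drought, whereas their titles, characteristics and treatment say salt, so they are read as salt here.

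Jasmonate is made from linolenic acid in the chloroplast, where lipoxygenases add oxygen, allene oxide synthase and allene oxide cyclase close the ring to give OPDA, and then in the peroxisome, where an OPDA reductase acts before the side chain is shortened. JAR1 joins the product to isoleucine, and the conjugate brings JAZ proteins to the F-box receptor COI1, which marks them for breakdown and so frees the transcription factors they hold. Many JAZ genes are themselves switched on by jasmonate, which closes a feedback loop, and jasmonate signalling is known to be active in wounded, attacked and water-stressed rice.

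Median intensity lay between 7.09 and 7.77 on the 27 arrays, and the mean correlation of an array with the others of its group lay between 0.9958 and 0.9989. Nonabokra at 6 h array 1 and IR29 at 6 h array 1 had the lowest correlations of their groups, and without both 1 of the 135 member calls made in the 6 salt comparisons was lost, that of JAZ3 in IR29 at 6 h. Unstressed Nonabokra array 3 (0.99637) lay below Nonabokra at 6 h array 1 (0.99644). Without that unstressed array all 38 member calls of the Nonabokra salt comparisons were kept, and 2 of the 97 calls in Pokkali and IR29 were lost. Some measures that are not jasmonate genes moved with salt, and their part in the results was not tested. The summed intensity of 4 root genes (NIP2-1, Lsi2, IRT1 and CASP1) was 2035 to 2168 at 3 h and 4871 to 5433 at 6 h in Nonabokra, against 7539 to 8405 in its control. It was 1203 to 1416 and 2636 to 2840 in Pokkali, against 4882 to 5069, and 557.7 to 622 and 1781 to 2264 in IR29, against 8940 to 9883. At 3 h all 4 root genes fell in IR29, while in Nonabokra 2 rose and 2 fell and in Pokkali 1 rose and 2 fell. The summed intensity of 3 leaf genes (RBCS, RCA and CAB2R) lay between 64870 and 81230 in all groups. Within that sum RCA, rubisco activase, rose at 3 h in every cultivar and had mean intensities of 17351 at 3 h and 10105 at 6 h in Nonabokra, against 13484 in its control, 17894 and 11627 in Pokkali, against 10707, and 23796 and 20890 in IR29, against 15192. Means of 4 of 6 seed storage genes (GLUA1, RAG1, RAG2 and RP6) were under 16, while GLUA2 and GLB1 were brighter in every group. The summed intensity of the 6 was 1656 to 1810 at 3 h and 1422 to 1542 at 6 h in Nonabokra, against 1431 to 1508 in its control. It was 1350 to 1389 and 1184 to 1225 in Pokkali, against 1511 to 1594. In IR29 it was 1581 to 1784 and 1462 to 1651, against 1652 to 1773. PBZ1, a wound and pathogen response gene, was at 1235 to 1332 at 3 h and 753 to 852.9 at 6 h in Nonabokra, against 6339 to 6521 in its control. It was at 514.1 to 627.2 and 642.8 to 669 in Pokkali, against 1319 to 1579, and at 21340 to 23570 and 5561 to 6116 in IR29, against 913.4 to 972.3. In whole seedlings, fewer cells of a type and less RNA per cell cannot be told apart. The poly-A spikes, foreign transcripts put into each RNA as a labelling control, were at log2 differences from control of -0.473 to -0.596 at 3 h and -1.37 to -1.86 at 6 h.

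JAZ6 and AOS3 rose in every cultivar at both times, AOS4 and LOX1.1 fell in every cultivar at both times, and 13 of the 35 members rose in at least 1 of the 6 salt comparisons and fell in at least 1 other, as did 15.3% of all genes. Among these, JAZ13, JAZ10, CM-LOX1 and CM-LOX2 passed at 6 h in IR29 with the opposite sign to both tolerant cultivars. The JAZ10 fall in IR29 did not pass when the fit held the compared groups alone. A member passed at an adjusted p under 0.05 in limma's moderated test across all 57194 probe sets, on differences of log2(intensity + 16), which understate changes of dim transcripts. At 3 h, 20 of 35 members passed in Nonabokra (8 higher and 12 lower), 21 in Pokkali (6 and 15) and 26 in IR29 (16 and 10), where 57.6%, 53.1% and 64.1% of all genes passed. At 6 h, 18 members passed in Nonabokra (7 higher and 11 lower), 24 in Pokkali (12 and 12) and 26 in IR29 (11 and 15), where 47.1%, 43.5% and 52.9% of all genes passed. With only the compared groups in the fit, the IR29 count at 6 h was 17 (9 higher and 8 lower). As shares of the members these are 57.1%, 60.0% and 74.3% at 3 h and 51.4%, 68.6% and 74.3% at 6 h; in Nonabokra the share is close to that of all genes. At 3 h the share of members that passed with a change of 2-fold or more, that is of at least 1 in size on this log2 scale, was 25.7% in Nonabokra, 17.1% in Pokkali and 25.7% in IR29, beside 14.4%, 11.5% and 9.14% of all genes. At 6 h it was 28.6%, 28.6% and 22.9%, beside 7.97%, 6.84% and 5.45%. The median change of the 35 members lay between -0.04 and 0.13 in the 6 comparisons, and that of all genes between -0.01 and 0.00. The 6 comparisons share control arrays within a cultivar.

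**Figure D1:**
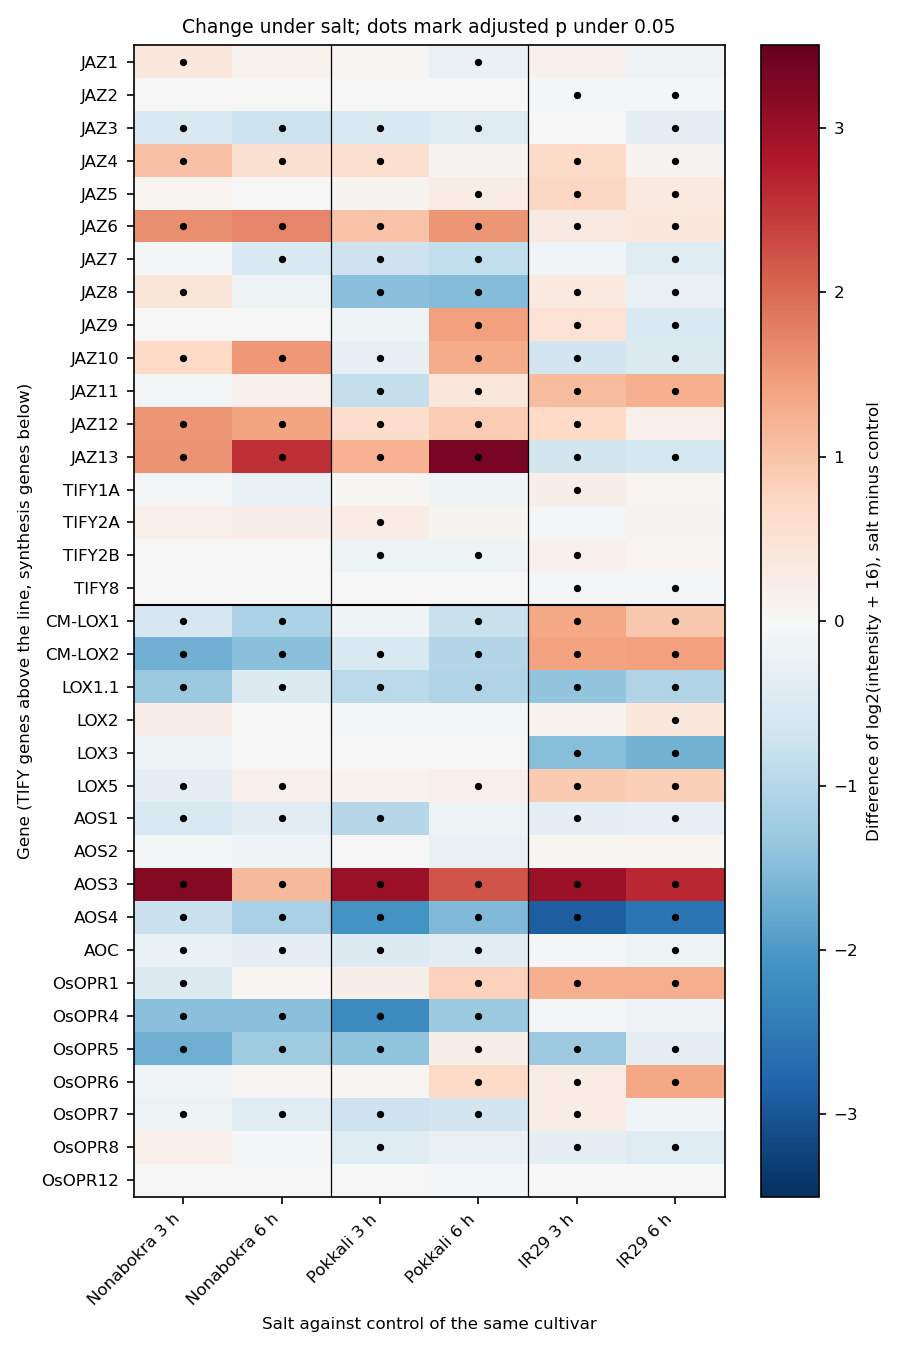
Difference of log2(intensity + 16), salt minus control, for each of the 35 genes (rows) in each cultivar and time (columns), from 3 arrays a group; red is higher and blue lower under salt, and a dot marks an adjusted p under 0.05. AOS3 is red and AOS4 and LOX1.1 are blue in all 6 columns, and JAZ13, JAZ10 and CM-LOX2 change colour between the Nonabokra and IR29 columns.

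More JAZ repressor genes rose than fell in Nonabokra at both times, in Pokkali at 6 h and in IR29 at 3 h; in Pokkali at 3 h and IR29 at 6 h, rises and falls were equal in number once the fit held the compared groups alone. In Nonabokra, 7 of the 13 JAZ genes rose and 1 fell at 3 h, where 27.4% and 30.2% of all genes did, and 5 rose and 2 fell at 6 h, where 22.4% and 24.7% did. In Pokkali, 4 rose and 5 fell at 3 h (24.9% and 28.2% of all genes), and 7 rose and 4 fell at 6 h (21.2% and 22.3%). IR29 had 7 that rose and 3 that fell at 3 h (32.7% and 31.4% of all genes), and 4 rose and 7 fell at 6 h (26.0% of all genes rose and 4830 of 17905 fell). With the compared groups alone, 4 rose and 4 fell in Pokkali at 3 h, and 3 JAZ genes rose (JAZ5, JAZ6 and JAZ11) and 3 fell (JAZ7, JAZ9 and JAZ13) in IR29 at 6 h, where the rise of JAZ4 and the falls of JAZ2, JAZ3, JAZ8 and JAZ10 did not pass. JAZ2, at -0.03, had mean intensities under 16. The median JAZ change was 0.37 at 3 h and 0.13 at 6 h in Nonabokra, 0.01 and 0.26 in Pokkali and 0.30 and -0.13 in IR29.

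JAZ6, a JAZ repressor also named TIFY10A, rose in all 6 comparisons, and at 6 h by more in the tolerant cultivars. In Nonabokra the JAZ6 intensity was 1046, 1160.1 and 1158 on the unstressed arrays, 3379.8, 3442 and 3578 after 3 h of salt and 3488, 3685 and 3839.7 after 6 h. In Pokkali the JAZ6 intensity was 1381, 1339.5 and 1453 on the unstressed arrays, 2766, 2701 and 2864 after 3 h of salt and 4008, 4418 and 3755 after 6 h. In IR29 the JAZ6 intensity was 1585, 1509.9 and 1602 on the unstressed arrays, 1954, 1943 and 1912 after 3 h of salt and 1829, 2068 and 2158 after 6 h. Each salt array of a cultivar lay above each of its unstressed arrays, and at 6 h the tolerant cultivars lay well above IR29. JAZ6 differed from control by 1.62 at 3 h and 1.70 at 6 h in Nonabokra, by 0.99 and 1.53 in Pokkali and by 0.30 and 0.36 in IR29, each ± 0.06 (SE), and all 6 differences passed (limma, adjusted p from 1.77e-14 to 0.000368). The response at 6 h differed by 1.34 ± 0.08 between Nonabokra and IR29 (adjusted p = 4.98e-10) and 1.17 ± 0.08 between Pokkali and IR29 (adjusted p = 3.58e-09). The JAZ6 probe set is of a kind that may read more than 1 transcript. Among the TIFY genes, so are those of JAZ2, JAZ4, JAZ10 and TIFY2B.

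JAZ12, also named TIFY11D, rose at 3 h in every cultivar and at 6 h in the tolerant ones. In Nonabokra the JAZ12 intensity was 489, 473 and 475 on the unstressed arrays, 1386, 1439 and 1442 after 3 h of salt and 1241, 1245 and 1301 after 6 h. In Pokkali the JAZ12 intensity was 1129, 943 and 1048 on the unstressed arrays, 1605, 1558 and 1674 after 3 h of salt and 1858, 2078 and 1899 after 6 h. In IR29 the JAZ12 intensity was 731, 860.4 and 865 on the unstressed arrays, 1179, 1471 and 1362 after 3 h of salt and 774, 976 and 1079 after 6 h. Salt and unstressed arrays were apart in every comparison but IR29 at 6 h, where they overlapped, and unstressed Nonabokra was the lowest group. JAZ12 differed from control by 1.54 at 3 h and 1.37 at 6 h in Nonabokra, by 0.63 and 0.90 in Pokkali and by 0.70 and 0.19 in IR29, each ± 0.10 (SE). JAZ12 passed with limma adjusted p from 7.12e-11 to 3.04e-05, and the difference of IR29 at 6 h (adjusted p = 0.105) did not pass.

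JAZ4, also named TIFY6B, peaked at 3 h in all cultivars. In Nonabokra the JAZ4 intensity was 1058, 1039 and 1019.6 on the unstressed arrays, 2209, 2097 and 2132 after 3 h of salt and 1441, 1516 and 1564 after 6 h. In Pokkali the JAZ4 intensity was 1810.3, 1763 and 1789 on the unstressed arrays, 2545, 2735 and 2630.1 after 3 h of salt and 1909, 1919 and 1915 after 6 h. In IR29 the JAZ4 intensity was 1592, 1645 and 1738 on the unstressed arrays, 2746, 2658 and 2577 after 3 h of salt and 1708, 1832 and 1777 after 6 h. Every 3 h array lay above both the unstressed and the 6 h arrays of its cultivar. JAZ4 differed from control by 1.04 at 3 h and 0.53 at 6 h in Nonabokra, by 0.56 and 0.10 in Pokkali and by 0.68 and 0.10 in IR29, each ± 0.04 (SE). JAZ4 passed with limma adjusted p from 4.44e-15 to 0.0293, and the difference of Pokkali at 6 h (adjusted p = 0.052) did not pass. From 3 h to 6 h the change was -0.51 in Nonabokra, -0.46 in Pokkali and -0.58 in IR29. A second, dimmer JAZ4 probe set was also higher at 3 h, by 1.07, 1.24 and 0.77 in Nonabokra, Pokkali and IR29, and passed in no cultivar at 6 h. With the mean of both probe sets the small IR29 change at 6 h turned sign, to -0.10. The JAZ4 call in IR29 at 6 h was lost without unstressed IR29 array 1, unstressed IR29 array 2, IR29 at 6 h array 2 or IR29 at 6 h array 3, left out one at a time (values from 0.07 to 0.09).

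JAZ13, also named TIFY11E, had the largest difference in salt response between cultivars of all 35 members. It rose in the tolerant cultivars, where it was dim without salt, and fell in IR29, where it was bright without salt. In Nonabokra the JAZ13 intensity was 79.1, 82.4 and 106 on the unstressed arrays, 236, 334 and 327 after 3 h of salt and 659, 580.4 and 552 after 6 h. In Pokkali the JAZ13 intensity was 54.1, 68.4 and 96.5 on the unstressed arrays, 166, 191 and 205 after 3 h of salt and 940.2, 1008 and 648 after 6 h. In IR29 the JAZ13 intensity was 883, 862 and 746 on the unstressed arrays, 575, 588 and 431 after 3 h of salt and 511, 531 and 566 after 6 h. No salt array overlapped the unstressed arrays of its cultivar, and after 6 h the Nonabokra and IR29 arrays overlapped. JAZ13 differed from control by 1.58 at 3 h and 2.55 at 6 h in Nonabokra, by 1.21 and 3.31 in Pokkali and by -0.64 and -0.61 in IR29, each ± 0.18 (SE), and all 6 differences passed (limma, adjusted p from 1.93e-11 to 0.00994). The response at 3 h differed by 2.22 ± 0.26 between Nonabokra and IR29 (adjusted p = 1.84e-06) and 1.85 ± 0.26 between Pokkali and IR29 (adjusted p = 1.77e-05). At 6 h it differed by 3.16 ± 0.26 between Nonabokra and IR29 (adjusted p = 1.7e-08) and 3.92 ± 0.26 between Pokkali and IR29 (adjusted p = 7.49e-10). Unstressed Nonabokra stood -3.01 ± 0.18 and unstressed Pokkali -3.27 ± 0.18 from unstressed IR29 (adjusted p = 6.96e-11 and 1.14e-11), and these differences rest on the same control arrays as the responses.

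JAZ10, also named TIFY11B, at 6 h rose in both tolerant cultivars and fell in IR29. In Nonabokra the JAZ10 intensity was 437, 442 and 431 on the unstressed arrays, 695, 725 and 719 after 3 h of salt and 1445, 1170.4 and 1263 after 6 h. In Pokkali the JAZ10 intensity was 644, 716 and 773 on the unstressed arrays, 649.9, 548 and 551 after 3 h of salt and 1826, 1863 and 1604 after 6 h. In IR29 the JAZ10 intensity was 1518, 1549 and 1515 on the unstressed arrays, 967, 962 and 929 after 3 h of salt and 1329, 973 and 965 after 6 h. Arrays were apart in every comparison except Pokkali at 3 h, where 1 salt array reached into the unstressed range. JAZ10 differed from control by 0.69 at 3 h and 1.53 at 6 h in Nonabokra, by -0.28 and 1.29 in Pokkali and by -0.67 and -0.50 in IR29, each ± 0.10 (SE), and all 6 differences passed (limma, adjusted p from 2.84e-10 to 0.0484). The 6 h response differed by 2.02 ± 0.14 between Nonabokra and IR29 (adjusted p = 2.37e-09) and 1.79 ± 0.14 between Pokkali and IR29 (adjusted p = 1.46e-08). At 6 h a second, dimmer JAZ10 probe set gave 0.80 in Nonabokra, 1.07 in Pokkali and -0.78 in IR29, all passed. At 3 h that probe set gave 0.43 in Nonabokra and -1.24 in IR29, both passed, and -0.34 in Pokkali, which did not pass. The JAZ10 call in Pokkali at 3 h was lost without unstressed Pokkali array 2, unstressed Pokkali array 3, Pokkali at 3 h array 2 or Pokkali at 3 h array 3, left out one at a time (values from -0.27 to -0.22). The JAZ10 fall in IR29 at 6 h did not pass when the fit held the compared groups alone.

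JAZ9, also named TIFY11A and linked in rice to salt tolerance and potassium transport, was dim in both tolerant cultivars without salt and brighter in IR29. In Nonabokra the JAZ9 intensity was 22.0, 28.7 and 26.6 on the unstressed arrays, 28.5, 23.7 and 26.6 after 3 h of salt and 21.4, 26.6 and 31.2 after 6 h. In Pokkali the JAZ9 intensity was 32.5, 32.0 and 32.6 on the unstressed arrays, 28.7, 34.3 and 21.3 after 3 h of salt and 112, 125 and 106 after 6 h. In IR29 the JAZ9 intensity was 201, 208 and 211 on the unstressed arrays, 325, 285 and 288 after 3 h of salt and 142, 148 and 124 after 6 h. Nonabokra stayed in 1 narrow range throughout, Pokkali lay above its control at 6 h, and IR29 lay above its control at 3 h and below it at 6 h. JAZ9 differed from control by 0.02 at 3 h and 0.02 at 6 h in Nonabokra, by -0.14 and 1.43 in Pokkali and by 0.50 and -0.53 in IR29, each ± 0.10 (SE). JAZ9 passed with limma adjusted p from 6.03e-10 to 0.000348, and the differences of Nonabokra at 3 h (adjusted p = 0.924), Nonabokra at 6 h (adjusted p = 0.936) and Pokkali at 3 h (adjusted p = 0.429) did not pass. From 3 h to 6 h Pokkali changed by 1.58 ± 0.10 and IR29 by -1.03 ± 0.10 (adjusted p = 2.52e-10 and 2.24e-07). The 6 h response differed by 1.97 ± 0.14 between Pokkali and IR29 (adjusted p = 2.52e-09).

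JAZ11, also named TIFY11C, rose in IR29 at both times and fell, then rose, in Pokkali. In Nonabokra the JAZ11 intensity was 924, 979 and 977 on the unstressed arrays, 871, 1042 and 918 after 3 h of salt and 1149, 1024 and 1011 after 6 h. In Pokkali the JAZ11 intensity was 1772, 1841 and 1626 on the unstressed arrays, 1020.5, 1044 and 869 after 3 h of salt and 2304, 2391 and 2149 after 6 h. In IR29 the JAZ11 intensity was 913, 887 and 804 on the unstressed arrays, 1901, 1879.9 and 1848 after 3 h of salt and 2086, 2226 and 1937 after 6 h. The IR29 and Pokkali salt arrays were clear of their controls at both times, and the Nonabokra 3 h arrays overlapped theirs. JAZ11 differed from control by -0.03 at 3 h and 0.14 at 6 h in Nonabokra, by -0.83 and 0.38 in Pokkali and by 1.10 and 1.25 in IR29, each ± 0.08 (SE). JAZ11 passed with limma adjusted p from 1.58e-10 to 0.000777, and the differences of Nonabokra at 3 h (adjusted p = 0.846) and Nonabokra at 6 h (adjusted p = 0.27) did not pass. At 3 h the response differed by -1.93 ± 0.11 between Pokkali and IR29 (adjusted p = 7.08e-11).

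JAZ8, also named TIFY10C and known as a repressor in the jasmonate-induced resistance of rice to bacterial blight, fell by more than 2-fold in Pokkali alone among the cultivars. In Nonabokra the JAZ8 intensity was 722, 656 and 709 on the unstressed arrays, 958, 927 and 905 after 3 h of salt and 657, 583 and 595 after 6 h. In Pokkali the JAZ8 intensity was 1094, 1131 and 1014 on the unstressed arrays, 407, 368 and 362 after 3 h of salt and 347, 387 and 362 after 6 h. In IR29 the JAZ8 intensity was 873, 1046 and 953 on the unstressed arrays, 1276, 1200.4 and 1178 after 3 h of salt and 775, 858 and 746 after 6 h. In Pokkali all salt arrays lay far below the unstressed ones at both times, while the 3 h arrays of the other cultivars lay above theirs. JAZ8 differed from control by 0.41 at 3 h and -0.18 at 6 h in Nonabokra, by -1.47 and -1.52 in Pokkali and by 0.35 and -0.27 in IR29, each ± 0.07 (SE). JAZ8 passed with limma adjusted p from 9.2e-13 to 0.00487, and the difference of Nonabokra at 6 h (adjusted p = 0.0687) did not pass. The 3 h response of Nonabokra exceeded that of Pokkali by 1.88 ± 0.10 (adjusted p = 2.36e-11), and that of Pokkali differed from that of IR29 by -1.82 ± 0.10 (adjusted p = 3.15e-11).

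**Figure D2:**
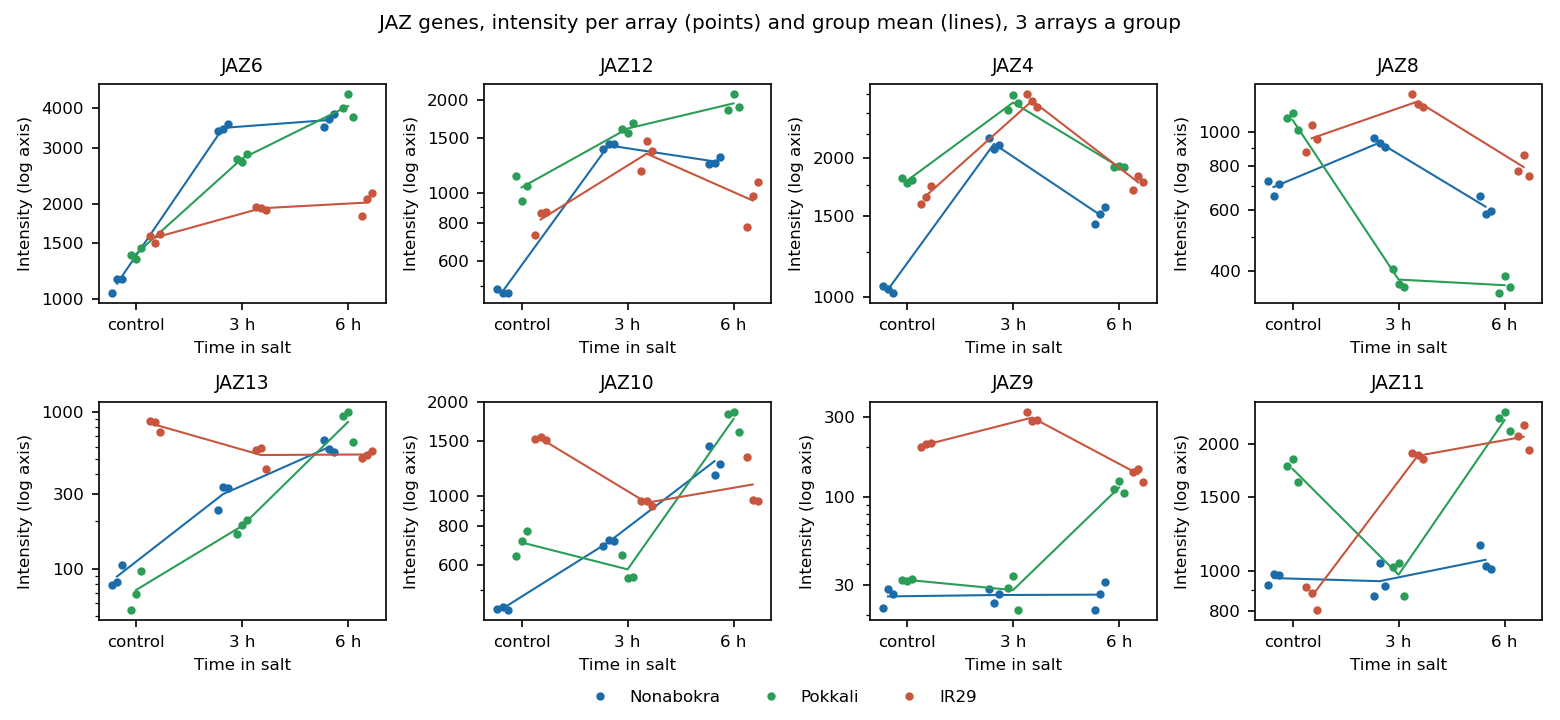
Intensity (log axis) of 8 JAZ genes against time in salt, one point per array and lines through group means, for Nonabokra (blue), Pokkali (green) and IR29 (red), 3 arrays a group. JAZ6 climbs to 3671 in Nonabokra and 4060.4 in Pokkali at 6 h and to 2018 in IR29, and JAZ13 starts at 89.1 and 73.0 in the tolerant cultivars and at 830.3 in IR29.

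The other TIFY genes differed from control by less than 1 in size on the log2(intensity + 16) scale in every salt comparison. JAZ3 and JAZ7, also named TIFY6A and TIFY10B, fell at 6 h in all 3 cultivars: JAZ3 at -0.76, -0.46 and -0.32, and JAZ7 at -0.52, -0.87 and -0.43 in Nonabokra, Pokkali and IR29. JAZ1, known as EG2 for its part in shaping the rice spikelet, passed as higher in Nonabokra at 3 h (0.37) and as lower in Pokkali at 6 h (-0.22). JAZ5 was dim, with group means of 6.96 to 24.1, and rose in IR29 at both times, to a mean of 24.1 at 3 h and 14.9 at 6 h, against 8.18 in control (0.73 and 0.35) and in Pokkali at 6 h (0.26). TIFY1A, TIFY2A and TIFY2B, which carry a GATA-type zinc finger beside the TIFY motif, stayed between -0.24 and 0.26 over the 6 comparisons. JAZ2 and TIFY8 had mean intensities under 16 in all 9 groups, and the changes that passed for them in IR29 were no larger in size than -0.05. Several of these calls were lost when 1 array was left out. The JAZ3 call in IR29 at 6 h was lost without IR29 at 6 h array 1 (-0.19). The JAZ1 call in Pokkali at 6 h was lost without unstressed Pokkali array 3 or Pokkali at 6 h array 3, left out one at a time (values from -0.20 to -0.18). The TIFY1A call in IR29 at 3 h was lost without unstressed IR29 array 1, unstressed IR29 array 2, unstressed IR29 array 3, IR29 at 3 h array 1 or IR29 at 3 h array 3, left out one at a time (values from 0.15 to 0.23). The TIFY2A call in Pokkali at 3 h was lost without unstressed Pokkali array 2, unstressed Pokkali array 3, Pokkali at 3 h array 1 or Pokkali at 3 h array 3, left out one at a time (values from 0.22 to 0.26). The TIFY2B call in Pokkali at 3 h was lost without unstressed Pokkali array 1, unstressed Pokkali array 3, Pokkali at 3 h array 1 or Pokkali at 3 h array 2, left out one at a time (values from -0.13 to -0.10). The TIFY2B call in Pokkali at 6 h was lost without unstressed Pokkali array 1, unstressed Pokkali array 3, Pokkali at 6 h array 2 or Pokkali at 6 h array 3, left out one at a time (values from -0.14 to -0.12). The TIFY2B call in IR29 at 3 h was lost without IR29 at 3 h array 3 (0.11). The JAZ2 call in IR29 at 6 h was lost without unstressed IR29 array 1, IR29 at 6 h array 2 or IR29 at 6 h array 3, left out one at a time (-0.02). The TIFY8 call in IR29 at 6 h was lost without unstressed IR29 array 1, IR29 at 6 h array 2 or IR29 at 6 h array 3, left out one at a time (values from -0.03 to -0.01).

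Among the synthesis genes falls outnumbered rises in the tolerant cultivars at both times, as they did over all genes. In Nonabokra 1 of 18 rose and 11 fell at 3 h, and 2 rose and 9 fell at 6 h. In Pokkali 1 rose and 9 fell at 3 h, and 5 rose and 7 fell at 6 h. In IR29 7 rose and 6 fell at 3 h, and 7 rose and 7 fell at 6 h. Their median change was -0.27 at 3 h and -0.23 at 6 h in Nonabokra, -0.29 and -0.22 in Pokkali and 0.02 and -0.05 in IR29. The shares of all genes that rose and fell in each comparison, and for IR29 at 6 h the number that fell, are those beside the JAZ counts.

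The chloroplast lipoxygenase genes CM-LOX1 and CM-LOX2 moved in opposite directions in tolerant and susceptible seedlings. In Nonabokra the CM-LOX2 intensity was 96.0, 75.1 and 81.4 on the unstressed arrays, 14.3, 15.9 and 15.2 after 3 h of salt and 19.5, 23.6 and 18.5 after 6 h. In Pokkali the CM-LOX2 intensity was 73.8, 63.8 and 85.1 on the unstressed arrays, 38.4, 50.7 and 49.5 after 3 h of salt and 26.6, 27.7 and 29.3 after 6 h. In IR29 the CM-LOX2 intensity was 32.1, 31.2 and 31.1 on the unstressed arrays, 99.2, 110.3 and 120.0 after 3 h of salt and 122, 99.9 and 114 after 6 h. No salt array of CM-LOX2 overlapped its control: the tolerant arrays lay below and the IR29 arrays above. CM-LOX2 differed from control by -1.68 at 3 h and -1.45 at 6 h in Nonabokra, by -0.54 and -1.03 in Pokkali and by 1.40 and 1.43 in IR29, each ± 0.09 (SE), and all 6 differences passed (limma, adjusted p from 1.13e-11 to 0.000136). The 3 h response differed by -3.09 ± 0.13 between Nonabokra and IR29 (adjusted p = 1.11e-12) and -1.94 ± 0.13 between Pokkali and IR29 (adjusted p = 1.33e-09). The other 2 probe sets paired with CM-LOX2 were dim, and their salt changes were at most 0.04 in size.

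CM-LOX1 started from a higher level in the tolerant cultivars. In Nonabokra the CM-LOX1 intensity was 129.7, 108 and 114 on the unstressed arrays, 75.7, 85.1 and 59.0 after 3 h of salt and 54.0, 49.6 and 33.7 after 6 h. In Pokkali the CM-LOX1 intensity was 279, 248 and 319 on the unstressed arrays, 260.4, 237 and 258 after 3 h of salt and 185, 140.4 and 146 after 6 h. In IR29 the CM-LOX1 intensity was 40.7, 50.3 and 37.1 on the unstressed arrays, 125, 132 and 143 after 3 h of salt and 114, 82.2 and 94.4 after 6 h. In Nonabokra the salt arrays lay below the control at both times and in IR29 above it, and in Pokkali the 3 h arrays overlapped the control. CM-LOX1 differed from control by -0.58 at 3 h and -1.12 at 6 h in Nonabokra, by -0.15 and -0.79 in Pokkali and by 1.35 and 0.94 in IR29, each ± 0.14 (SE). CM-LOX1 passed with limma adjusted p from 2.1e-07 to 0.00272, and the difference of Pokkali at 3 h (adjusted p = 0.697) did not pass. The 6 h response differed by -2.06 ± 0.20 between Nonabokra and IR29 (adjusted p = 2.3e-07) and -1.73 ± 0.20 between Pokkali and IR29 (adjusted p = 2.58e-06).

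LOX1.1, a lipoxygenase by its annotation, fell in every cultivar. In Nonabokra the LOX1.1 intensity was 72.3, 82.3 and 77.9 on the unstressed arrays, 18.6, 25.2 and 22.5 after 3 h of salt and 52.2, 49.9 and 50.0 after 6 h. In Pokkali the LOX1.1 intensity was 138, 159 and 120.1 on the unstressed arrays, 63.5, 62.0 and 66.0 after 3 h of salt and 58.5, 58.3 and 58.3 after 6 h. In IR29 the LOX1.1 intensity was 123, 113 and 111 on the unstressed arrays, 34.7, 33.7 and 35.5 after 3 h of salt and 59.4, 43.4 and 41.4 after 6 h. All salt arrays lay below the unstressed arrays of their cultivar, and Nonabokra and IR29 were lowest at 3 h. LOX1.1 differed from control by -1.30 at 3 h and -0.49 at 6 h in Nonabokra, by -0.95 and -1.05 in Pokkali and by -1.38 and -1.05 in IR29, each ± 0.09 (SE), and all 6 differences passed (limma, adjusted p from 1.47e-10 to 0.000227).

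LOX3, whose synonym r9-LOX1 names it a 9-lipoxygenase and so a branch of oxylipin synthesis outside the jasmonate route, was brighter in IR29 than in either tolerant cultivar. In Nonabokra the LOX3 intensity was 6.34, 8.59 and 8.98 on the unstressed arrays, 6.22, 4.74 and 5.32 after 3 h of salt and 9.72, 6.79 and 6.49 after 6 h. In Pokkali the LOX3 intensity was 12.7, 10.1 and 10.8 on the unstressed arrays, 11.8, 11.6 and 9.44 after 3 h of salt and 14.9, 9.62 and 10.1 after 6 h. In IR29 the LOX3 intensity was 142, 117 and 145 on the unstressed arrays, 44.9, 32.6 and 34.5 after 3 h of salt and 34.5, 33.8 and 28.3 after 6 h. In IR29 salt brought it down without overlap, and in the tolerant cultivars it remained at intensities under 16. LOX3 differed from control by -0.16 at 3 h and -0.02 at 6 h in Nonabokra, by -0.02 and 0.01 in Pokkali and by -1.50 and -1.64 in IR29, each ± 0.09 (SE). LOX3 passed with limma adjusted p from 3.29e-11 to 7.79e-11, and the differences of Nonabokra at 3 h (adjusted p = 0.265), Nonabokra at 6 h (adjusted p = 0.925), Pokkali at 3 h (adjusted p = 1) and Pokkali at 6 h (adjusted p = 0.929) did not pass.

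The other lipoxygenases were LOX5 and LOX2. LOX5 rose in IR29 by 0.92 at 3 h and 0.83 at 6 h and changed by -0.31 and 0.16 in Nonabokra, all passed. In Pokkali it was 0.11 at 3 h, which did not pass, and 0.19 at 6 h, which did. LOX2 passed in 1 of the 6 comparisons, IR29 at 6 h (0.37). The LOX5 call in Nonabokra at 6 h was lost without unstressed Nonabokra array 1, unstressed Nonabokra array 2, Nonabokra at 6 h array 1 or Nonabokra at 6 h array 2, left out one at a time (values from 0.13 to 0.16). The LOX2 call in IR29 at 6 h was lost without unstressed IR29 array 1 or IR29 at 6 h array 1, left out one at a time (values from 0.25 to 0.32).

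Allene oxide synthases belong to the CYP74 family of cytochrome P450 enzymes, which also holds hydroperoxide lyases. AOS3 and AOS4 are counted as synthesis genes by name, and which of these activities their enzymes have was not tested. They are adjacent genes and moved in opposite directions. In Nonabokra the AOS3 intensity was 8.20, 7.00 and 8.16 on the unstressed arrays, 194, 215 and 202 after 3 h of salt and 48.1, 30.5 and 33.0 after 6 h. In Pokkali the AOS3 intensity was 9.46, 8.47 and 9.03 on the unstressed arrays, 209, 181 and 176 after 3 h of salt and 111, 88.6 and 99.9 after 6 h. In IR29 the AOS3 intensity was 9.45, 12.5 and 10.1 on the unstressed arrays, 197, 209 and 201 after 3 h of salt and 166, 135 and 148 after 6 h. AOS3 was near the array median without salt in all 3 cultivars, reached overlapping levels at 3 h, and at 6 h ordered as IR29, Pokkali and Nonabokra from high to low, with no overlap between them. AOS3 differed from control by 3.21 at 3 h and 1.15 at 6 h in Nonabokra, by 3.03 and 2.21 in Pokkali and by 3.03 and 2.63 in IR29, each ± 0.10 (SE), and all 6 differences passed (limma, adjusted p from 7.39e-16 to 1.13e-08). From 3 h to 6 h it changed by -2.06 ± 0.10 in Nonabokra, -0.82 ± 0.10 in Pokkali and -0.40 ± 0.10 in IR29 (adjusted p = 3.27e-12, 1.96e-06 and 0.00593). The size of the rise depends on the added constant: at 3 h in Nonabokra it was 3.21 with 16 added, 4.54 with 1 and 1.90 with 64.

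AOS4 fell in every cultivar, furthest in IR29, where it was brightest without salt. In Nonabokra the AOS4 intensity was 85.6, 75.2 and 85.1 on the unstressed arrays, 45.4, 39.0 and 39.6 after 3 h of salt and 30.8, 29.6 and 25.7 after 6 h. In Pokkali the AOS4 intensity was 110.3, 97.5 and 97.0 on the unstressed arrays, 10.9, 11.9 and 11.2 after 3 h of salt and 25.1, 24.8 and 22.6 after 6 h. In IR29 the AOS4 intensity was 246, 243 and 249.8 on the unstressed arrays, 19.6, 19.9 and 19.0 after 3 h of salt and 38.0, 26.7 and 22.7 after 6 h. Salt arrays lay below the unstressed ones throughout, and at 6 h the IR29 arrays overlapped those of both other cultivars. AOS4 differed from control by -0.77 at 3 h and -1.13 at 6 h in Nonabokra, by -2.10 and -1.55 in Pokkali and by -2.89 and -2.55 in IR29, each ± 0.08 (SE), and all 6 differences passed (limma, adjusted p from 8.82e-16 to 2.25e-07). The 3 h response differed by 2.11 ± 0.12 between Nonabokra and IR29 (adjusted p = 4.92e-11) and 0.78 ± 0.12 between Pokkali and IR29 (adjusted p = 5.11e-05).

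AOS1 and AOS2 and the cyclase differed from control by less than 1 in size on the log2(intensity + 16) scale in every salt comparison. AOS1, known as PRECOCIOUS, fell at 3 h, at -0.55 in Nonabokra, -0.99 in Pokkali and -0.34 in IR29, all passed. In Pokkali its mean intensity was 40.7 at 3 h, against 96.4 in control. At 6 h the differences were -0.37, -0.18 and -0.29, of which Pokkali did not pass. AOS2 passed in none of the 6 comparisons (group means of 22.3 to 31.2). AOC, the allene oxide cyclase gene known from the mutants cpm2 and hebiba, differed by -0.22, -0.49 and -0.04 at 3 h and -0.32, -0.37 and -0.19 at 6 h in Nonabokra, Pokkali and IR29, and IR29 at 3 h did not pass. The AOS1 call in Nonabokra at 6 h was lost without unstressed Nonabokra array 2 (-0.28). The AOS1 call in IR29 at 6 h was lost without unstressed IR29 array 2, unstressed IR29 array 3 or IR29 at 6 h array 3, left out one at a time (-0.23). The AOC call in IR29 at 6 h was lost without IR29 at 6 h array 3 (-0.14).

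OPR genes code for reductases that act on OPDA or related compounds. OsOPR7 is the one tied to jasmonate synthesis in the rice peroxisome, and what the others do in that route is less settled. OsOPR6, OsOPR5, OsOPR4 and OsOPR1 lie in this order with 0, 1 and 2 genes between neighbours, and they did not move together. In Nonabokra the OsOPR4 intensity was 549.5, 503 and 615 on the unstressed arrays, 223, 177 and 177 after 3 h of salt and 213, 191 and 167 after 6 h. In Pokkali the OsOPR4 intensity was 585, 604 and 596 on the unstressed arrays, 117, 122 and 108 after 3 h of salt and 242, 249 and 202 after 6 h. In IR29 the OsOPR4 intensity was 167, 162 and 172 on the unstressed arrays, 181, 144 and 148 after 3 h of salt and 167, 144 and 142 after 6 h. OsOPR4 stood well above IR29 in both tolerant cultivars without salt, fell there at both times, and overlapped its control in IR29. OsOPR4 differed from control by -1.46 at 3 h and -1.47 at 6 h in Nonabokra, by -2.22 and -1.31 in Pokkali and by -0.08 and -0.14 in IR29, each ± 0.10 (SE). OsOPR4 passed with limma adjusted p from 9.9e-13 to 5.16e-09, and the differences of IR29 at 3 h (adjusted p = 0.534) and IR29 at 6 h (adjusted p = 0.288) did not pass. The 3 h response differed by -1.38 ± 0.15 between Nonabokra and IR29 (adjusted p = 6.16e-07) and -2.14 ± 0.15 between Pokkali and IR29 (adjusted p = 1.31e-09).

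OsOPR5, read by its brightest probe set, fell by more than 2-fold at 3 h in every cultivar and then diverged. In Nonabokra the OsOPR5 intensity was 2108, 2339 and 2147 on the unstressed arrays, 674, 620.3 and 672 after 3 h of salt and 911, 894 and 976 after 6 h. In Pokkali the OsOPR5 intensity was 1348, 1465 and 1374 on the unstressed arrays, 551, 497 and 514 after 3 h of salt and 1561, 1720.4 and 1579 after 6 h. In IR29 the OsOPR5 intensity was 1074, 1219 and 1232 on the unstressed arrays, 503, 448 and 482 after 3 h of salt and 895, 958 and 919.7 after 6 h. At 6 h the Nonabokra and IR29 arrays were still below control, whereas the Pokkali arrays were above it. OsOPR5 differed from control by -1.72 at 3 h and -1.23 at 6 h in Nonabokra, by -1.40 and 0.21 in Pokkali and by -1.27 and -0.34 in IR29, each ± 0.06 (SE), and all 6 differences passed (limma, adjusted p from 7.87e-15 to 0.0139). From 3 h to 6 h it was higher by 0.49 in Nonabokra, 1.61 in Pokkali and 0.93 in IR29, all passed. A second, dimmer OsOPR5 probe set gave -0.53, -0.35 and -0.63 at 3 h in Nonabokra, Pokkali and IR29, of which IR29 passed. At 6 h that probe set gave -0.40, 0.35 and -0.26, and passed in no cultivar. With the mean of both probe sets the OsOPR5 changes at 3 h were -1.13, -0.87 and -0.95. The OsOPR5 call in Pokkali at 6 h was lost without unstressed Pokkali array 1 or Pokkali at 6 h array 2, left out one at a time (values from 0.17 to 0.19).

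OsOPR6 was near the array median without salt and rose late. In Nonabokra the OsOPR6 intensity was 7.90, 5.79 and 7.91 on the unstressed arrays, 4.53, 7.85 and 5.26 after 3 h of salt and 8.55, 7.45 and 8.08 after 6 h. In Pokkali the OsOPR6 intensity was 7.46, 7.33 and 7.42 on the unstressed arrays, 8.15, 8.05 and 9.06 after 3 h of salt and 24.1, 17.1 and 25.4 after 6 h. In IR29 the OsOPR6 intensity was 8.38, 7.50 and 8.19 on the unstressed arrays, 9.96, 14.1 and 14.9 after 3 h of salt and 52.9, 48.2 and 36.0 after 6 h. At 6 h Pokkali and IR29 were clear of their controls, IR29 by more, and Nonabokra overlapped its control. OsOPR6 differed from control by -0.09 at 3 h and 0.05 at 6 h in Nonabokra, by 0.06 and 0.70 in Pokkali and by 0.27 and 1.35 in IR29, each ± 0.09 (SE). OsOPR6 passed with limma adjusted p from 5.85e-10 to 0.0159, and the differences of Nonabokra at 3 h (adjusted p = 0.678), Nonabokra at 6 h (adjusted p = 0.778) and Pokkali at 3 h (adjusted p = 0.966) did not pass. The OsOPR6 call in IR29 at 3 h was lost without IR29 at 3 h array 2 or IR29 at 3 h array 3, left out one at a time (values from 0.22 to 0.24).

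OsOPR1 rose in IR29 by 1.23 at 3 h and 1.27 at 6 h and in Pokkali by 0.79 at 6 h, and fell in Nonabokra at 3 h (-0.48). OsOPR7 differed by -0.18, -0.74 and 0.26 at 3 h and -0.43, -0.68 and -0.10 at 6 h in Nonabokra, Pokkali and IR29, all passed but IR29 at 6 h, so at 3 h it fell in both tolerant cultivars and rose in IR29. OsOPR8 fell in Pokkali at 3 h (-0.42) and in IR29 at both times (-0.30 and -0.44). OsOPR12 had mean intensities of 5.34 to 6.08 and passed in no salt comparison. The OsOPR7 call in Nonabokra at 3 h was lost without unstressed Nonabokra array 1 (-0.14). The OsOPR8 call in IR29 at 3 h was lost without unstressed IR29 array 2 (-0.24).

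**Figure D3:**
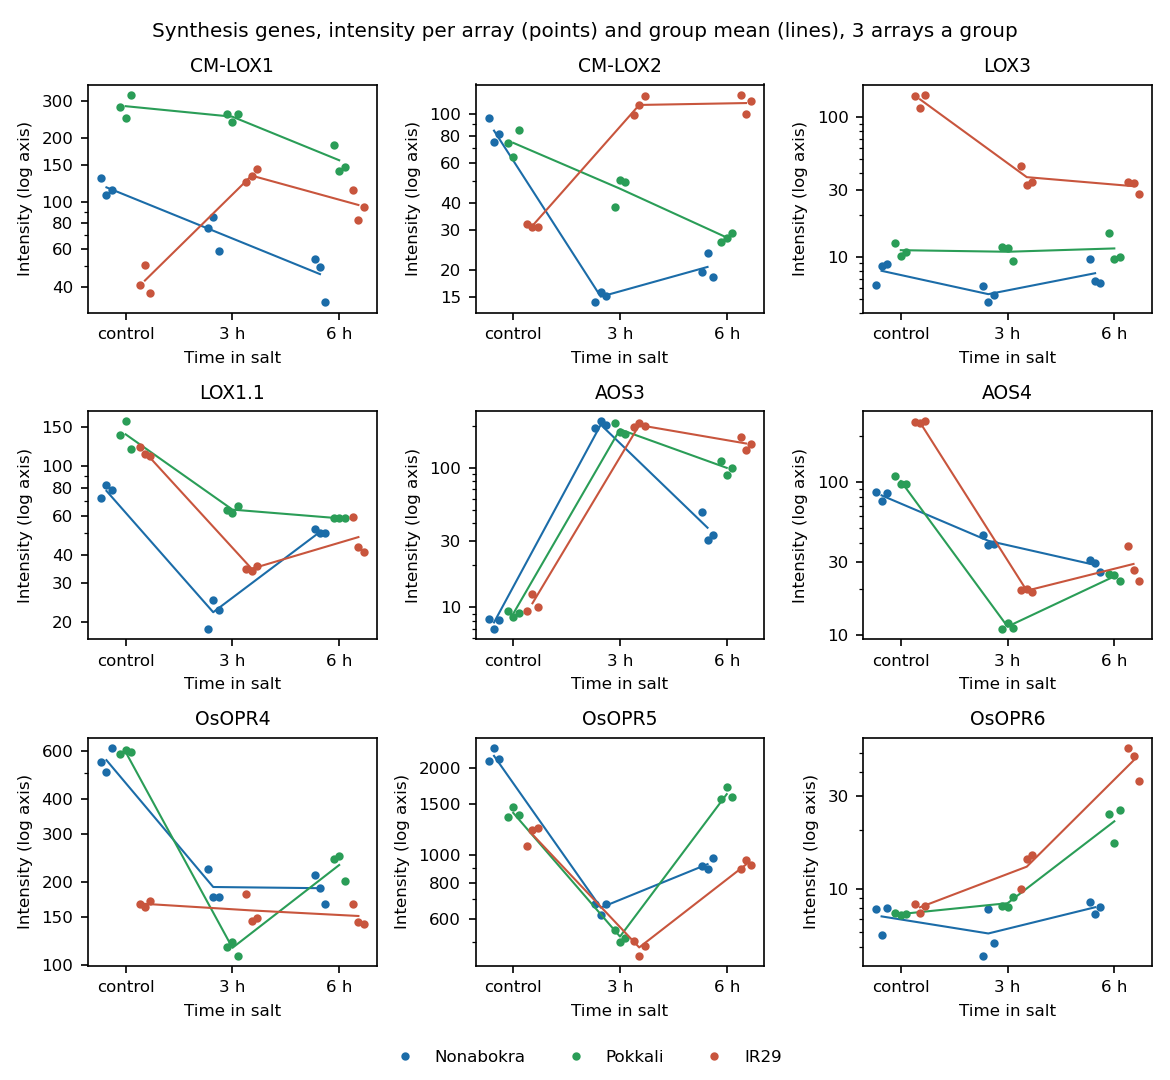
Intensity (log axis) of 9 synthesis genes against time in salt, one point per array and lines through group means, for Nonabokra (blue), Pokkali (green) and IR29 (red), 3 arrays a group. CM-LOX2 falls to 15.1 at 3 h in Nonabokra and climbs to 109.8 in IR29, AOS3 peaks between 189 and 204 at 3 h in all 3 cultivars, and OsOPR5 dips at 3 h in each.

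Without salt the cultivars already differed in these genes. JAZ13, JAZ9, JAZ10, LOX3 and AOS4 were lower by 2-fold or more in both tolerant cultivars than in IR29, and OsOPR4 and CM-LOX1 were higher by 2-fold or more in both. Nonabokra had 9 members higher and 13 lower than IR29, where 26.7% and 25.0% of all genes were. Pokkali had 19 higher and 8 lower than IR29 (33.9% and 27.9% of all genes). With quantile scaling Pokkali had 15 higher and 7 lower than IR29, and leaving out 1 array at a time gave 21 to 28 members in either direction. Nonabokra against Pokkali had 2 higher and 16 lower (18.1% and 21.6%), among them 8 JAZ genes lower and 0 higher. The median member difference was -0.02 for Nonabokra against IR29, 0.17 for Pokkali against IR29 and -0.19 for Nonabokra against Pokkali, beside 0.01, 0.02 and 0.00 over all genes. At 2-fold or more, 8, 8 and 3 members passed, beside 5.94%, 9.92% and 5.99% of all genes.

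JAZ9 had mean intensities of 25.8 ± 3.41 in unstressed Nonabokra and 32.3 ± 0.311 in unstressed Pokkali, against 206 ± 5.23 in unstressed IR29 (SD, n = 3), at log2 differences of -2.42 ± 0.10 and -2.20 ± 0.10 (SE). LOX3 had mean intensities of 7.97 ± 1.42 in unstressed Nonabokra and 11.2 ± 1.35 in unstressed Pokkali, against 135 ± 15.2 in unstressed IR29 (SD, n = 3), at differences of -2.65 ± 0.09 and -2.47 ± 0.09. CM-LOX1 had mean intensities of 117 ± 11.2 in unstressed Nonabokra and 282 ± 35.5 in unstressed Pokkali, against 42.7 ± 6.80 in unstressed IR29 (SD, n = 3), at differences of 1.18 ± 0.14 and 2.34 ± 0.14. JAZ9 and LOX3 were thus lower and CM-LOX1 higher in both tolerant cultivars, and all 6 differences passed (limma, adjusted p from 1.14e-14 to 1.78e-06). LOX5 stood 1.05 above IR29 in Pokkali and at -0.23 in Nonabokra, and CM-LOX2 at 1.07 in Nonabokra and 0.92 in Pokkali, all passed. A list of 4 genes that abscisic acid switches on (RAB16B, RAB16C, RAB16D and LEA3) summed to 2089 to 2639 in unstressed Nonabokra and 20700 to 20830 in unstressed Pokkali, against 2790 to 3265 in unstressed IR29, and its part in the Pokkali differences was not tested.

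**Figure D4:**
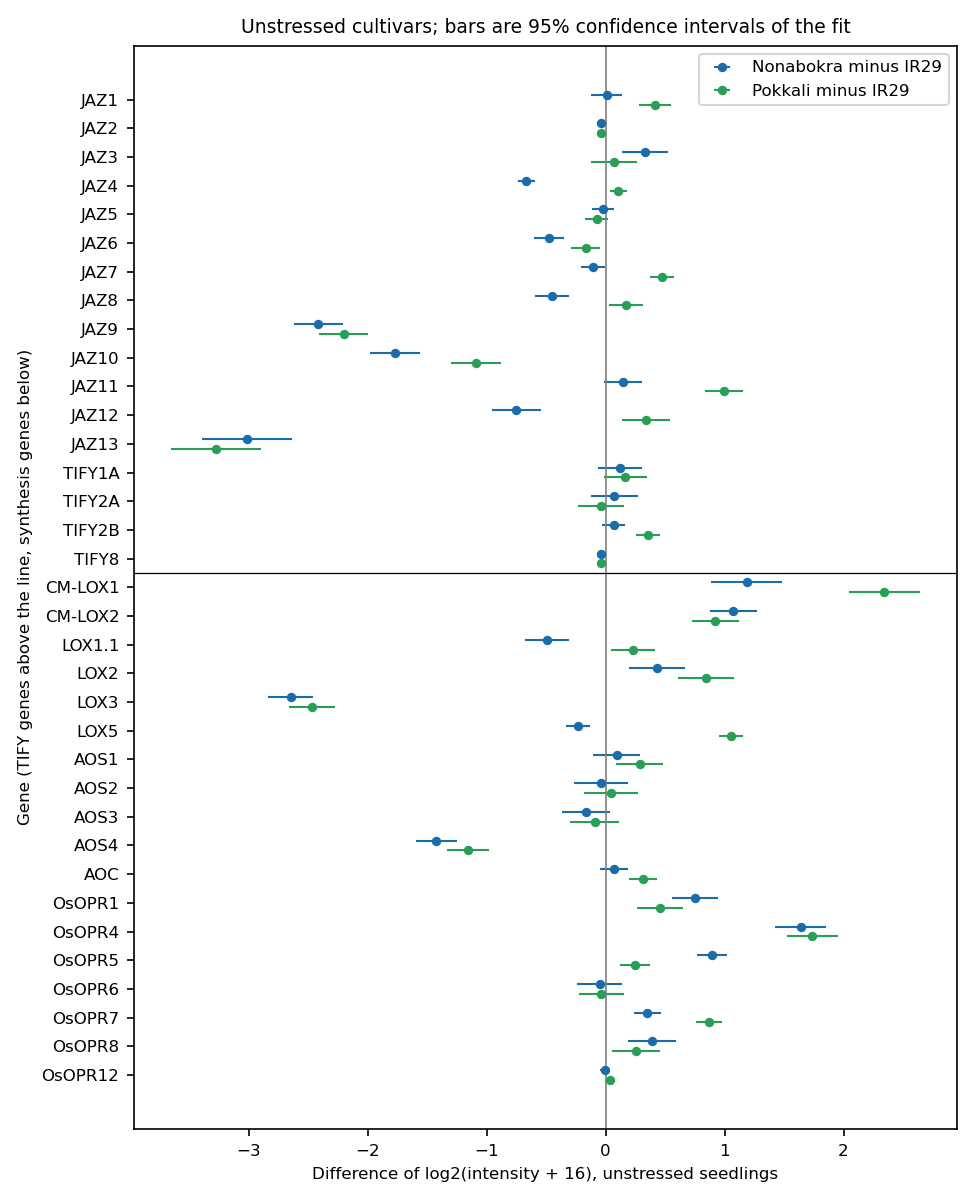
Difference of log2(intensity + 16) between unstressed Nonabokra and IR29 (blue) and unstressed Pokkali and IR29 (green) for each of the 35 genes, with 95% confidence intervals of the fit to 3 arrays a group. JAZ13 lies at -3.01 and -3.27, LOX3 at -2.65 and -2.47 and CM-LOX1 at 1.18 and 2.34.

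The salt responses themselves were compared between cultivars as interactions, that is, as the difference between 2 salt-minus-control differences, and those of both tolerant cultivars against IR29 share the IR29 arrays. At 3 h, 20 of 35 members differed between Nonabokra and IR29, 23 between Pokkali and IR29 and 18 between Nonabokra and Pokkali, where 37.4%, 44.8% and 26.7% of all genes did. At 6 h, 22, 20 and 15 members differed, where 31.1%, 26.9% and 28.4% of all genes did. A response difference of 2-fold or more passed for 11, 8 and 3 members at 3 h and for 13, 10 and 4 at 6 h, beside 7.13%, 7.14% and 5.20% and then 5.45%, 5.37% and 4.93% of all genes. In all, 17 members (7 TIFY and 10 synthesis genes) had such a difference between at least 1 pair of cultivars at 3 h or 6 h, as did 15.3% of all genes. The members that passed in opposite directions in IR29 and in both tolerant cultivars were JAZ13, CM-LOX2 and OsOPR7 at 3 h and JAZ13, JAZ10, CM-LOX1 and CM-LOX2 at 6 h. The OsOPR7 call in Nonabokra at 3 h and the JAZ10 call in IR29 at 6 h were not kept under every alternative, as given with each gene. At the times listed JAZ13 and JAZ10 rose against control in the tolerant cultivars and fell in IR29, and CM-LOX1, CM-LOX2 and OsOPR7 did the reverse. Members opposed between IR29 and Pokkali but not Nonabokra did not all follow this split. At 3 h JAZ8 and JAZ11 fell in Pokkali (-1.47 and -0.83) and rose in IR29 (0.35 and 1.10). At 6 h JAZ9 and OsOPR5 both rose in Pokkali (1.43 and 0.21) and fell in IR29 (-0.53 and -0.34). The median response difference of the synthesis genes at 6 h was -0.36 for Nonabokra against IR29 and -0.37 for Pokkali against IR29, beside -0.01 and 0.00 over all genes. That of the JAZ genes was 0.26 and 0.00.

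At each time 8 of the 35 members changed in the same direction in every cultivar, at 3 h a smaller share than among all genes. At 3 h, JAZ4, JAZ6, JAZ12 and AOS3 rose and AOS1, AOS4, LOX1.1 and OsOPR5 fell in all 3, where 15.8% of all genes rose and 15.5% fell in all 3. At 6 h, JAZ6, AOS3 and LOX5 rose and JAZ3, JAZ7, AOS4, LOX1.1 and AOC fell in all 3, of which the LOX5 call in Nonabokra and those of JAZ3 and AOC in IR29 were lost on leaving out single arrays, as given with each gene. Of all genes, 10.1% rose and 8.46% fell in all 3 at 6 h.

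Between 3 h and 6 h of salt, more JAZ transcripts rose than fell in Pokkali, and more fell than rose in IR29. All controls were taken at 6 h, so here change with time alone cannot be told apart from change with time in salt. In Pokkali 7 of 13 JAZ genes were higher at 6 h than at 3 h and 3 lower, led by JAZ13 (2.10), JAZ9 (1.58), JAZ10 (1.57) and JAZ11 (1.21). In IR29 0 were higher and 8 lower, led by JAZ9 (-1.03), JAZ8 (-0.61) and JAZ4 (-0.58). In Nonabokra 2 were higher and 4 lower, with JAZ13 (0.97) and JAZ10 (0.84) as the 2 that rose. With the compared groups alone in the fit, 6 JAZ genes were higher and 3 lower in Pokkali, 0 and 5 in IR29 and 2 and 4 in Nonabokra. Of all genes, 23.7% were higher and 20.4% lower at 6 h in Pokkali, 14.1% and 16.7% in IR29 and 21.9% and 22.8% in Nonabokra. Over all 35 members 14 passed in Nonabokra, 19 in Pokkali and 14 in IR29, beside 44.7%, 44.0% and 30.8% of all genes, and with only the compared groups in the fit the IR29 count was 7 (2 higher and 5 lower).

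Of a list of other jasmonate pathway genes, 8 could be matched to a probe set: the receptors COI1A, COI1B and COI2, the conjugating enzyme JAR1, the adaptor NINJA1 and the corepressor TPR2, through which JAZ proteins silence their targets, and the transcription factors BHLH148 and JAMYB. The other names on the list, MYC2 among them, are not analysed here. In Nonabokra 5 of the 8 rose and 1 fell at 3 h and 4 rose and 2 fell at 6 h, in Pokkali 4 rose and 2 fell and then 3 rose and 3 fell, and in IR29 4 rose and 3 fell and then 3 rose and 3 fell. Of all genes, 27.4% rose and 30.2% fell at 3 h and 22.4% and 24.7% at 6 h in Nonabokra, 24.9% and 28.2% and then 21.2% and 22.3% in Pokkali, and 32.7% and 31.4% and then 26.0% and 4830 of 17905 in IR29. JAMYB is a MYB factor named for its induction by jasmonate. In Nonabokra the JAMYB intensity was 172, 121 and 152 on the unstressed arrays, 627, 722 and 693 after 3 h of salt and 388, 422 and 393 after 6 h. In Pokkali the JAMYB intensity was 127, 115 and 127 on the unstressed arrays, 374, 370.0 and 387 after 3 h of salt and 467, 389 and 437 after 6 h. In IR29 the JAMYB intensity was 238, 217 and 317 on the unstressed arrays, 550.5, 585 and 608 after 3 h of salt and 409, 426 and 449 after 6 h. It rose at both times in all 3 cultivars, with no overlap. JAMYB differed from control by 2.09 at 3 h and 1.35 at 6 h in Nonabokra, by 1.50 and 1.68 in Pokkali and by 1.14 and 0.72 in IR29, each ± 0.11 (SE), and all 6 differences passed (limma, adjusted p from 5.32e-12 to 5.66e-05).

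BHLH148, a basic helix-loop-helix factor known to bind JAZ proteins and to act in the drought response of rice, rose in the tolerant cultivars and fell in IR29 at both times. In Nonabokra the BHLH148 intensity was 189, 177 and 189 on the unstressed arrays, 302, 296 and 294 after 3 h of salt and 564, 538 and 540.0 after 6 h. In Pokkali the BHLH148 intensity was 228, 252 and 273 on the unstressed arrays, 319, 289 and 312 after 3 h of salt and 797, 846 and 731 after 6 h. In IR29 the BHLH148 intensity was 676, 619.9 and 597 on the unstressed arrays, 389, 387 and 412 after 3 h of salt and 379.6, 361 and 356 after 6 h. Salt arrays lay above the unstressed ones in both tolerant cultivars and below them in IR29, which had the highest unstressed level. BHLH148 differed from control by 0.64 at 3 h and 1.49 at 6 h in Nonabokra, by 0.27 and 1.60 in Pokkali and by -0.65 and -0.76 in IR29, each ± 0.06 (SE), and all 6 differences passed (limma, adjusted p from 4.05e-14 to 0.000967). The 6 h response differed by 2.25 ± 0.08 between Nonabokra and IR29 (adjusted p = 1.29e-13) and 2.36 ± 0.08 between Pokkali and IR29 (adjusted p = 8.12e-14).

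COI1A, which codes for a form of the jasmonate receptor, differed by 0.76, 0.33 and 0.75 at 3 h and 0.47, 0.16 and 0.46 at 6 h in Nonabokra, Pokkali and IR29, and Pokkali at 6 h did not pass. COI1B, its close relative, differed by 0.18, 0.48 and 0.65 at 3 h and 0.14, 0.57 and 0.51 at 6 h, and Nonabokra at 6 h did not pass. Both COI1 receptor genes thus rose at 3 h in every cultivar. COI2 fell at 3 h, at -0.54, -0.36 and -0.14, and passed in no cultivar at 6 h. JAR1 and NINJA1 fell at 6 h in all 3 cultivars, JAR1 at -0.45, -0.44 and -0.61 and NINJA1 at -0.25, -0.27 and -0.25. In Nonabokra the JAR1 arrays at 6 h (216.8 to 279.1) overlapped the control arrays (262.4 to 395.6). Calls of these further pathway genes were not checked under the alternative fits or with arrays left out. TPR2 stayed between -0.26 and 0.27.

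**Figure D5:**
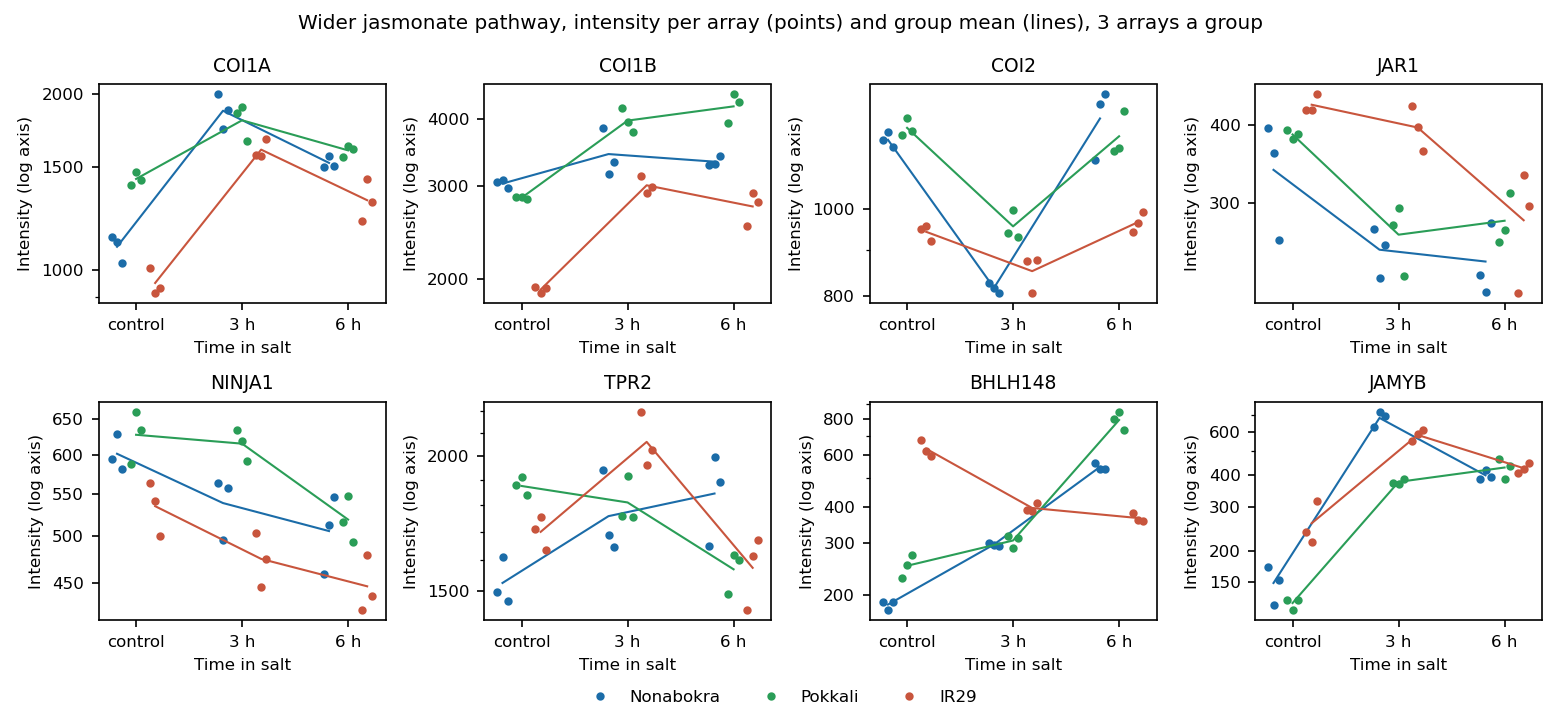
Intensity (log axis) of 8 further jasmonate pathway genes against time in salt, one point per array and lines through group means, for Nonabokra (blue), Pokkali (green) and IR29 (red), 3 arrays a group. BHLH148 starts at a mean of 185 in Nonabokra, 251 in Pokkali and 631 in IR29, and the IR29 line runs down while the others run up.

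Several members lie side by side in the japonica reference annotation (assembly ASM3414082v1): JAZ9, JAZ11 and JAZ10 in a row on chromosome 3, AOS3 and AOS4 on chromosome 2, CM-LOX1 and CM-LOX2 on chromosome 8, JAZ13 and JAZ12 on chromosome 10 with 3 genes between them, and OsOPR6, OsOPR5, OsOPR4 and OsOPR1 on chromosome 6. Neighbours did not always move together. At 6 h in IR29, JAZ11 was higher (1.25) while JAZ9 (-0.53) and JAZ10 (-0.50) were lower, AOS3 rose where AOS4 fell in all 6 comparisons, and CM-LOX1 and CM-LOX2 moved the same way in every comparison in which both passed.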

How the data were processed

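Whole seedlings were profiled on rice Affymetrix arrays, 1 array per sample. The deposited values are intensities on a linear scale, 1 per probe set, made with GCOS per the submitters' processing notes; how the authors summarised probes and scaled arrays is not given in the sources used here. The number of arrays limits the precision. Groups were taken from the sample labels. From the deposited intensities, log2(intensity + 16) was fitted with 9 group means in limma 3.58.1 (R 4.3.3; lmFit and eBayes, two-sided), and p-values were adjusted by Benjamini-Hochberg over 57194 probe sets, without 187 control probe sets. Interactions tested differences between responses. A gene was represented by its brightest probe set among those paired with 1 gene in the platform annotation, with symbols updated through the reference gene table. The procedure was tested on simulated data.

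The members and lists were chosen with earlier results of these data known. Array values are given for the 8 TIFY and 8 synthesis genes with the largest salt changes that passed without overlap of arrays, up to 2 more of each for unstressed and response differences, and, of the wider list, up to 6 genes; array values were printed for 2 of those. Replicate numbers were checked for pairing: in 2 of 36 pairs of groups every same-numbered pair of arrays correlated above 0.1 in its deviations, namely unstressed Nonabokra with unstressed Pokkali (0.469, 0.16 and 0.192) and Nonabokra with IR29 at 6 h (0.724, 0.423 and 0.397). Alternatives covered the prior variance, the groups fitted, a filter on dim probe sets, quantile and median scaling, the added constant, the choice of probe set, the threshold, a replicate block and leaving out arrays. Promoter motifs and list names without a unique match are not analysed here. Figures were drawn with matplotlib 3.10.9 in Python 3.11.15.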

Additional observations from a re-analysis of the deposited data

Results flagged for a closer look

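The salt response differed between cultivars in many of the 35 members. By the interaction test (limma, adjusted p under 0.05), 20 members differed between Nonabokra and IR29 at 3 h, 23 between Pokkali and IR29 and 18 between Nonabokra and Pokkali, beside 37.4%, 44.8% and 26.7% of all genes. At 6 h the counts were 22, 20 and 15, beside 31.1%, 26.9% and 28.4%.

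For 17 members, and 15.3% of all genes, the response differed by 2-fold or more between a pair of cultivars at 3 h or 6 h, and the largest such difference of each member is given here on the log2 scale, the first cultivar minus the second. Among the TIFY genes it was 3.92 for JAZ13 (Pokkali minus IR29, 6 h), 2.02 for JAZ10 (Nonabokra minus IR29, 6 h) and 1.97 for JAZ9 (Pokkali minus IR29, 6 h). It was -1.93 for JAZ11 (Pokkali minus IR29, 3 h), 1.88 for JAZ8 (Nonabokra minus Pokkali, 3 h), 1.34 for JAZ6 and 1.18 for JAZ12 (both Nonabokra minus IR29, 6 h).

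Among the lipoxygenases it was -3.09 for CM-LOX2 and -1.22 for LOX5 (both Nonabokra minus IR29, 3 h), -2.06 for CM-LOX1 (Nonabokra minus IR29, 6 h) and 1.66 for LOX3 (Pokkali minus IR29, 6 h). Of the allene oxide synthase family, AOS4 stood at 2.11 (Nonabokra minus IR29, 3 h) and AOS3 at -1.48 (Nonabokra minus IR29, 6 h). For the OPR genes it was -2.14 for OsOPR4 (Pokkali minus IR29, 3 h), -1.71 for OsOPR1 (Nonabokra minus IR29, 3 h), -1.44 for OsOPR5 (Nonabokra minus Pokkali, 6 h) and -1.30 for OsOPR6 (Nonabokra minus IR29, 6 h).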

How the results depend on the processing

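Of 135 member calls in the 6 salt comparisons, 106 passed under every alternative and 29 were lost or reversed under at least 1, 18 of these at the stricter adjusted p under 0.01. The adjusted p call of the 52 differences of 2-fold or more was kept under every alternative run, but their size was not: with 64 in place of 16 added before the log, 18 of the 52 were under 2-fold (AOS3 in Nonabokra at 6 h at 0.49, CM-LOX2 in Pokkali at 6 h at -0.59 and OsOPR6 in IR29 at 6 h at 0.60), and with 1 added 0 were, so shares at 2-fold depend on this constant. The count of members that passed stayed within 1.5 times its value in 16 of 18 comparisons. With the compared groups alone in the fit it was 17 for IR29 at 6 h against control, where all groups together gave 26. For IR29 at 6 h against 3 h it was 7, where all groups together gave 14. That fit has fewer arrays to estimate the spread in every comparison, and why the count moved in these was not tested. Averaging the probe sets of each gene, JAZ4 in IR29 at 6 h was -0.10, where its brightest probe set gave 0.10, since its dimmer probe set pointed down. On such averages the CM-LOX2 change at 3 h was -0.56 in Nonabokra and 0.45 in IR29. The OsOPR5 change at 3 h was -0.87 in Pokkali and -0.95 in IR29, both under 2-fold. With a replicate block the counts moved by at most 1, for example to 25 in IR29 at 6 h and 19 in Nonabokra at 6 h, and the TIFY8 call in IR29 at 6 h was lost. The dim filter dropped OsOPR12. Leaving out 1 array at a time gave 19 to 20 members in Nonabokra, 18 to 21 in Pokkali and 23 to 26 in IR29 at 3 h, and 17 to 19, 22 to 24 and 22 to 25 at 6 h. AOS4 in Pokkali at 3 h was -3.05 with 1 added and -1.14 with 64.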
